A study of Mus musculus with 6 samples.

Results

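Serine, glycine and folate one-carbon metabolism was followed through 10 enzyme genes in ribosome-bound mRNA of astrocytes. The genes were Phgdh, Psat1, Psph, Shmt1, Shmt2, Gldc, Amt, Gcsh, Aldh1l1 and Mthfd1, chosen by name, and all 10 were found among the 23955 genes of the files. There were 3 libraries from the diencephalon, dissected without the tissue around the third ventricle. The other 3 were from cortical grey matter, from which white matter and meninges had been removed. Each library pooled 3 mice of 3 months, of both sexes, on a C57BL/6 background. All mice carried the genotype Slc1a3 +/- GFP+ Rpl22HA fl/fl. In this RiboTag design 1 allele of the glutamate transporter gene Slc1a3 expresses the tamoxifen-activated recombinase CreERT2, a floxed Rpl22 allele then yields a ribosomal protein with a haemagglutinin tag, and a CAG promoter transgene reports recombination with EGFP. Tamoxifen was given by gavage from 9 weeks of age, 3 times at 48 h intervals, to the mice of both regions, so both groups share the recombination and the altered Slc1a3 allele. Unpurified RNA was not analysed here, and whether libraries of equal number share mice is not stated in the labels.

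In this pathway Phgdh (phosphoglycerate dehydrogenase), Psat1 (phosphoserine aminotransferase) and Psph (phosphoserine phosphatase) build serine from the glycolytic intermediate 3-phosphoglycerate. Serine hydroxymethyltransferase, cytosolic from Shmt1 and mitochondrial from Shmt2, splits serine into glycine and a one-carbon unit carried by tetrahydrofolate. The mitochondrial glycine cleavage system releases a further one-carbon unit from glycine with its P protein (Gldc), T protein (Amt), H protein (Gcsh) and L protein (Dld, shared with other dehydrogenase complexes). Mthfd1 interconverts the folate-bound units in the cytosol, and Aldh1l1 (10-formyltetrahydrofolate dehydrogenase) oxidises them to carbon dioxide. In the brain, astrocytes are the main cells that make serine, which neurons use for D-serine and lipids, and Aldh1l1 is a widely used astrocyte marker.

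Of the 10 genes, 8 had enough counts to be tested, and 4 of these were lower in diencephalon than in the cortex: Psat1, Gldc, Phgdh and Aldh1l1. None was higher, also at an unadjusted p under 0.05 and with DESeq2 or limma voom. Over all 10568 genes tested, 29.6% passed, 14.8% as lower and 14.9% as higher (quasi-likelihood test of edgeR, adjusted p under 0.05 by the Benjamini-Hochberg method). Psat1 and Gldc were also shown to be lower by more than 1.5-fold, against 5.41% of all genes tested. The median log2 difference of the 8 genes was -0.62, beside 0.01 over all genes tested. Psat1 and Gldc passed under all 18 settings tried, while Phgdh passed in 8 and Aldh1l1 in 9 of 18. With 1 library left out, 2 to 5 of the genes were lower. Psph, Shmt2, Gcsh and Mthfd1 did not pass, and Amt and Shmt1 had too few counts.

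The sequences just before the starts of the 4 lower genes and of Shmt2, which did not pass, are shown so that promoters of genes that passed and of one that did not stand side by side. They are 250 bases each from RefSeq (GRCm38.p6), 5′ to 3′ on the strand of the gene. Capitals mark CCAAT on either strand, the letters of the CCAAT box that the factor NF-Y binds.
Psat1, chr19:15925060-15925309, minus strand: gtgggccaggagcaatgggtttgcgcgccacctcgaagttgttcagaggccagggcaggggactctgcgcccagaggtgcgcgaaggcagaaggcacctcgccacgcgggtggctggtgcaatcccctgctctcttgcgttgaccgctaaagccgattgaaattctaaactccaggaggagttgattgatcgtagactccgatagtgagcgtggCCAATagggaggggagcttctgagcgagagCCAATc
Phgdh, chr3:98339970-98340219, minus strand: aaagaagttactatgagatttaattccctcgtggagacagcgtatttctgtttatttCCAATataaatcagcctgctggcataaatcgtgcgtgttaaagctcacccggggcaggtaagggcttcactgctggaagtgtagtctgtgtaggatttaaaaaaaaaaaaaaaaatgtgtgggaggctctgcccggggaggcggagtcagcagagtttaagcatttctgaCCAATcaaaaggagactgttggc
Gldc, chr19:30175442-30175691, minus strand: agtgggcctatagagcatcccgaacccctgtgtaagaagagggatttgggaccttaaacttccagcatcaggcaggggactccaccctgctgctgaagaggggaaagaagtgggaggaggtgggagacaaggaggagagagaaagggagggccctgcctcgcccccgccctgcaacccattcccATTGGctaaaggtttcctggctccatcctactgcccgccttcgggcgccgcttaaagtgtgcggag
Aldh1l1, chr6:90550543-90550792, plus strand: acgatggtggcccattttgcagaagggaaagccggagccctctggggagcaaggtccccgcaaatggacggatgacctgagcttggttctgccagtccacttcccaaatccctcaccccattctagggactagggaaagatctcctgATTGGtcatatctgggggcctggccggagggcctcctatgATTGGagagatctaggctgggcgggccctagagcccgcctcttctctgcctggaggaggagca
Shmt2, chr10:127522445-127522694, minus strand: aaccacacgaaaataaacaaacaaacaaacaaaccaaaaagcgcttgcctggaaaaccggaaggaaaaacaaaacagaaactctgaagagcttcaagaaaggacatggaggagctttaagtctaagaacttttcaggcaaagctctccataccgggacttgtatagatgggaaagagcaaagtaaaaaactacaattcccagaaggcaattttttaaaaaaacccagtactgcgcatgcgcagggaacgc
CCAAT was found in at least 1 window of 9 of the 10 genes, all but Shmt2, and in 33.8% of the 32851 windows of this length in the table. Psph, Gcsh and Mthfd1, which did not pass either, and the untested Amt and Shmt1 also held CCAAT. Shmt2 thus does not stand for the genes that did not pass. The Phgdh and Aldh1l1 windows held 2 matches each, as did the Psat1 window shown and those of Psph and Gcsh, and the Gldc window held 1. The second Psat1 window of the table held none. TGATGNAA, the letters of an amino acid response element bound by ATF4, was in none of the windows of the 10 genes and in 3.45% of all windows. CACGTG, an E-box, was likewise in none of them and in 6.02% of all. GGGCGG, a GC box that can overlap neighbouring GC boxes, was in 1 or more windows of 8 of the 10 genes, not in those of Phgdh and Shmt2, and in 32.7% of all windows. The motifs were chosen after these data were seen, and a match is a description only.

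Depth and library makeup set how far these genes can be read. Totals ran from 1840344 to 2078793 counts in diencephalon and from 1733145 to 2334237 counts in cortical grey matter, and 3 counts correspond to 1.31 to 1.86 CPM (the count scaled to a library of fixed size, after TMM scaling). Such floors, and the counting intervals given here, hold counting error alone. Cortical grey matter replicate 3 stood apart, since its counts gave chi-square values of 7.39 and 6.31 for each degree of freedom when set against the other cortical libraries, which gave 2.7 between themselves. Of 22 astrocyte markers, which did not include the enzyme genes, all were detected and tested; 8 were lower and 2 higher in diencephalon, and none was at 0. Their summed CPM was 27600 to 31990 in diencephalon and 36700 to 46430 in cortical grey matter, where replicate 3 was lowest. Other cell types left traces in both regions. Summed oligodendrocyte markers were at 1851 to 2484 CPM in diencephalon and 852 to 1099 CPM in cortical grey matter, with 9 of the 10 tested markers higher in diencephalon. Summed meningeal and fibroblast markers were at 833 to 1255 CPM against 4479 to 8135 CPM, with 9 of 10 lower. Ptgds (4364 CPM on average) and Igf2 (1274 CPM) made up most of the mean cortical sum of 6195 CPM. Cortical excitatory neuron markers were at 714 to 1041 CPM against 4921 to 5835 CPM, with 8 of 8 lower. Camk2a (4681 CPM on average) made up most of the mean cortical sum of 5365 CPM. Summed ependymal and choroid plexus markers were at 142 to 173 CPM against 6.21 to 39.4 CPM, with 4 of 5 tested higher, and subcortical neuron markers at 324 to 378 CPM against 29.3 to 40.4 CPM, with 3 of 3 higher. Endothelial and mural markers were at 94.9 to 129 CPM against 180 to 305 CPM, with 2 of 5 lower. Microglial markers were at 328 to 581 CPM against 463 to 1075 CPM, highest in cortical replicate 3, with 2 of 9 lower. Over all genes tested, 14.9% were higher and 14.8% lower. Foxj1, Otx2, Clic6 and Pmch (summed counts 68, 79, 158 and 69.35 against 19, 3, 12 and 0) passed the count filter through diencephalon. Neurod6, Omd, Neurod2 and Tbr1 (6, 4, 24 and 22 against 192, 100, 231 and 439) passed it through cortical grey matter. Such markers could only be called in that direction, so their calls give no support for a difference. The same may hold for markers near the filter in 1 region. These are Mog and Ttr (30 and 32 counts in cortical grey matter) and Nrgn and Cdh5 (32 and 32 in diencephalon). No list in these comparisons had a defining marker at 0 in every library. The part of other cells in the results was not tested, and in these pooled libraries fewer astrocytes and less mRNA per astrocyte cannot be told apart.

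Psat1 was the most abundant of the 10 transcripts in every library and fell in diencephalon. Its values were 295, 235 and 253 CPM in diencephalon replicates 1 to 3, against 565, 529 and 509 CPM in cortical grey matter replicates 1 to 3. The regions did not overlap, and the lowest cortical library lay well above the highest diencephalic one. The log2 difference was -1.03 ± 0.13 (SE), or 2.05-fold lower (edgeR adjusted p = 1.64e-06, and 0.00287 for a change beyond 1.5-fold). The call of a lower level held under every setting run, with log2 differences of -1.13 to -0.51 and adjusted p up to 0.0260. The call beyond 1.5-fold was lost with either astrocyte marker scaling (adjusted p = 0.641 with the sum and 0.384 with equal weights). Psat1 also varied little within a region, with a coefficient of variation of 11.8% in diencephalon and 5.29% in cortical grey matter.

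Phgdh, the first enzyme of the branch, was lower as well but less evenly. It was at 67.8, 50.6 and 42.9 CPM in diencephalon, against 107, 110 and 54.7 CPM in cortical grey matter. Cortical replicate 3 lay within the diencephalic range, so the regions overlapped, and the other cortical libraries were higher than every diencephalic one. The log2 difference was -0.75 ± 0.24 (SE), 1.69-fold lower (edgeR adjusted p = 0.0286, range over settings 1.37e-05 to 0.456). The call was lost without diencephalon replicate 2 or 3 (adjusted p = 0.103 and 0.120) and without cortical replicate 1 or 2 (0.0989 and 0.103). Without cortical replicate 3, the library at the diencephalic level, the difference was -1.004 (adjusted p = 1.37e-05).

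Psph, which releases serine from phosphoserine, was the rarest transcript of the branch. It was at 8.42, 10.5 and 5.75 CPM in diencephalon, against 15.3, 15.4 and 13.7 CPM in cortical grey matter. There was no overlap between regions, as for Psat1 and Gldc; over all genes tested, 20.8% were lower without overlap. The log2 difference of -0.84 ± 0.32 (SE) nevertheless missed the threshold (edgeR adjusted p = 0.0525, range over settings 0.0455 to 0.462). At 11 to 20 counts in a diencephalic library this is the tested gene with the fewest counts. It passed without diencephalon replicate 2 or cortical replicate 3 (adjusted p = 0.0474 and 0.04995) and with limma voom (0.0455).

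**Figure D1:**
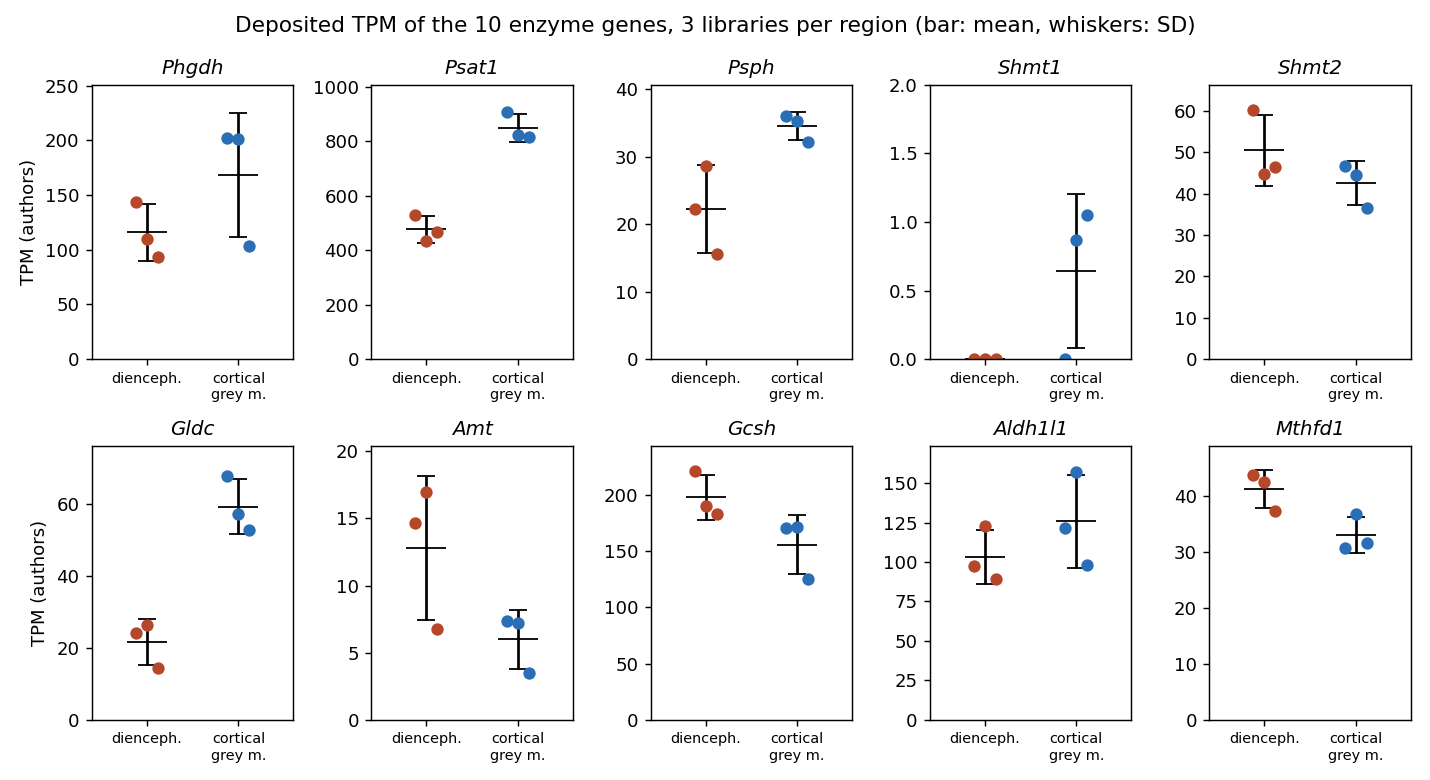
Deposited TPM (abundance per length, on a linear axis from 0) of the 10 enzyme genes in diencephalon (left, red) and cortical grey matter (right, blue); each point is 1 library, bars are means and whiskers SDs over 3 libraries. Psat1, Gldc and Psph show no overlap between regions with diencephalon lower (11.2% of genes on this scale), Gcsh and Mthfd1 none with diencephalon higher (28.3%), and Shmt1 lies between 0 and 1.05 TPM.

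Serine hydroxymethyltransferase mRNA came almost wholly from the mitochondrial gene. Shmt2 was at 35.6, 25.8 and 26.7 CPM in diencephalon, against 31.0, 30.4 and 24.2 CPM in cortical grey matter. These ranges overlapped throughout, and the log2 difference was 0.04 ± 0.22 (SE), with a 95% interval of -0.41 to 0.49 (edgeR adjusted p = 0.917). Shmt1 had 0 counts in diencephalon, out of 5801398, and 2 counts in cortical grey matter, out of 6014265. A count of 0 still allows up to 2.67 to 3.09 TPM in the diencephalic libraries, so low expression was not detectable at this depth and no fold between regions is given. Per gene length, Shmt2 was at least 52.7-fold above Shmt1 in diencephalon, against a floor of 3 Shmt1 counts over the group. In cortical grey matter the ratio was 75, with an exact 95% counting interval of 20.4 to 624.

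Within the glycine cleavage system the P protein gene fell while the H protein gene did not pass. Gldc was at 24.3, 25.8 and 14.1 CPM in diencephalon, against 76.4, 66.5 and 59.6 CPM in cortical grey matter. Each cortical library was more than 2-fold above each diencephalic one. The log2 difference was -1.66 ± 0.22 (SE), the largest of the 8 tested genes at 3.15-fold lower (edgeR adjusted p = 3.78e-06, and 0.000157 for a change beyond 1.5-fold). Over all settings it was -1.81 to -1.12, with adjusted p up to 0.00418.

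Gcsh, whose lipoyl group carries the intermediate between the other subunits, was at 71.1, 59.6 and 57.5 CPM in diencephalon, against 61.5, 63.9 and 45.3 CPM in cortical grey matter. The regions overlapped, and the log2 difference was 0.13 ± 0.18 (SE), with a 95% interval of -0.23 to 0.50 (edgeR adjusted p = 0.609). Amt, the T protein gene, had 10, 10 and 4 counts in diencephalon and 6, 5 and 2 counts in cortical grey matter, too few for the count filter. The scaled ratio of its summed counts, 24 against 13, was 1.79 (exact 95% counting interval 0.878 to 3.84). Without a filter its edgeR log2 difference was 0.83 (adjusted p = 0.421). Dld, the shared L protein gene, was at 98.7, 78.6 and 91.5 CPM against 115, 142 and 107 CPM. Its log2 difference of -0.44 ± 0.15 (SE) passed (edgeR adjusted p = 0.0301), but not without diencephalon replicate 2 or 3 (0.147 and 0.0773) or cortical replicate 2 (0.178). It also lost the call on the TPM scale (limma adjusted p = 0.286 for either pseudocount), and with libraries scaled to summed astrocyte markers its difference turned to 0.10 (range of adjusted p over settings 0.00608 to 0.689).

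Ratios between the subunit genes were also compared between the 2 regions. That of Gcsh to Gldc was not planned or tested, and it reuses the Gldc values called above. The ratio of Gcsh to Gldc in TPM was 9.13, 7.22 and 12.7 in diencephalon, against 2.51, 2.99 and 2.37 in cortical grey matter, with no overlap. That of Gldc to Amt was 1.65, 1.55 and 2.14 against 9.26, 7.94 and 15.3 (exact two-sided permutation p = 0.10, the smallest that 3 against 3 libraries allow, and 0.10 after adjustment over the 2 ratios tested). Such ratios within a library do not depend on how libraries are scaled, but the Amt values rest on 2 to 10 counts a library.

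**Figure D2:**
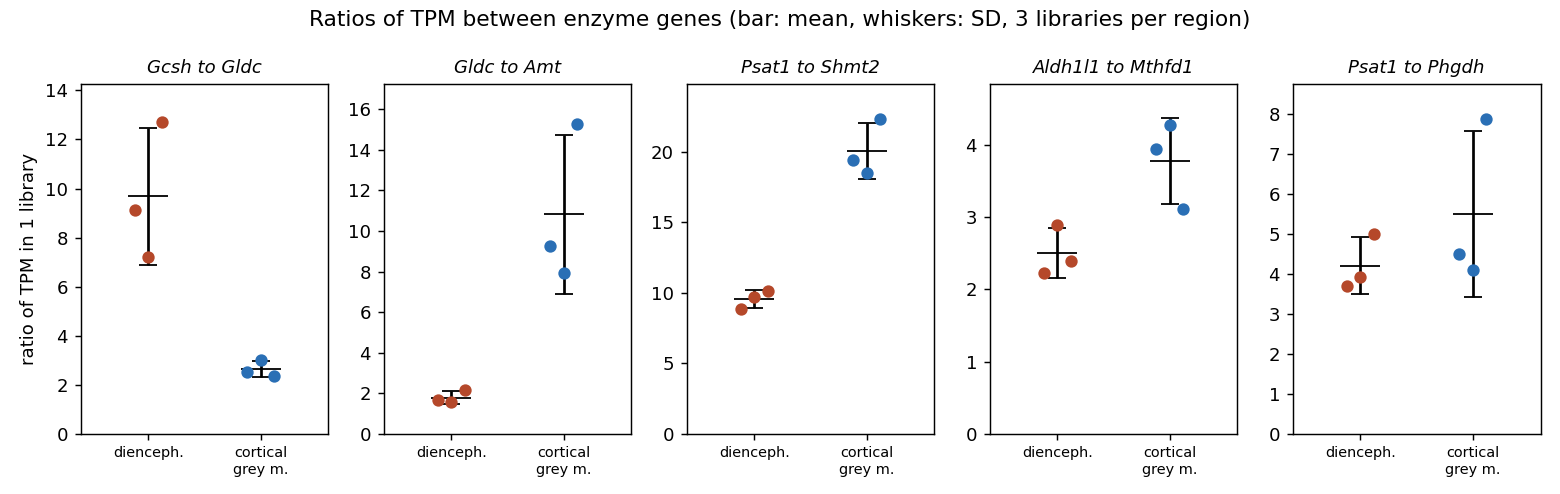
Ratios of TPM between pairs of enzyme genes within each library, for diencephalon (left, red) and cortical grey matter (right, blue), on linear axes from 0; points are libraries, bars means and whiskers SDs over 3 libraries. The ratios Gcsh to Gldc, Gldc to Amt, Psat1 to Shmt2 and Aldh1l1 to Mthfd1 do not overlap between regions, while Psat1 to Phgdh does. Phgdh to Psph, which is not drawn, overlaps too (6.46, 3.85 and 5.98 in diencephalon, against 5.6, 5.7 and 3.21 in cortical grey matter). Of the ratios drawn, only Gldc to Amt and Aldh1l1 to Mthfd1 were planned and tested.

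Of the cytosolic folate enzymes, Aldh1l1 was lower and Mthfd1 did not pass. Aldh1l1 was at 79.1, 97.0 and 70.6 CPM in diencephalon, against 110, 147 and 89.4 CPM in cortical grey matter. Diencephalon replicate 2 lay above cortical replicate 3, so the regions overlapped. The log2 difference was -0.50 ± 0.17 (SE), 1.41-fold lower (edgeR adjusted p = 0.0356, range over settings 0.00140 to 0.829), and turned to 0.06 with libraries scaled to summed astrocyte markers. The call was lost without diencephalon replicate 1 or 3 (adjusted p = 0.1001 and 0.173), without cortical replicate 1 or 2 (0.0531 and 0.263) and with DESeq2 (0.0741). Without cortical replicate 3 the difference was -0.65 (adjusted p = 0.00140). In the GENCODE annotation, exons of Aldh1l1 overlap those of Gm15756 on the other strand and Gm45901 on the same strand. Exons of Psph (Cct6a), Shmt1 (Smcr8), Shmt2 (Ndufa4l2) and Mthfd1 (Gm47525) overlap a gene on the other strand. Use of strand in the counting is not given in the sources used here, so reads shared by such pairs cannot be told apart.

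Mthfd1 was at 38.4, 36.4 and 31.9 CPM in diencephalon, against 30.1, 37.3 and 31.1 CPM in cortical grey matter. Its ranges overlapped, with a log2 difference of 0.12 ± 0.20 (SE) and a 95% interval of -0.29 to 0.53 (edgeR adjusted p = 0.695). In TPM, which rescales each library, neither Mthfd1 (37.3 to 43.7 against 30.7 to 36.7 TPM) nor Gcsh (183 to 221 against 125 to 171 TPM) overlapped between regions; 28.3% of genes were higher without overlap on that scale. The ratio of Aldh1l1 to Mthfd1 in TPM averaged 2.51 ± 0.341 in diencephalon, against 3.79 ± 0.601 in cortical libraries (SD, n = 3 each; exact two-sided permutation p = 0.10, the smallest possible). The 3 cortical ratios, 3.95, 4.28 and 3.12, all exceeded the diencephalic ones of 2.23, 2.89 and 2.40.

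Because astrocyte markers were themselves lower in sum, the fit was repeated with libraries scaled to them. With the sum of the 22 markers, in which Slc1a2 weighs most, the median of all genes moved to a log2 difference of 0.55. On that scale Psat1 (-0.51 ± 0.18 SE, edgeR adjusted p = 0.0260) and Gldc (-1.12 ± 0.23, adjusted p = 0.000682) were still lower. Phgdh (-0.20 ± 0.22, adjusted p = 0.456) and Aldh1l1 (0.06 ± 0.20, adjusted p = 0.829) no longer passed. Gcsh, Mthfd1 and Shmt2 passed as higher, at 0.68, 0.65 and 0.58 (adjusted p = 0.00743, 0.0199 and 0.0395), close to the shift of all genes. With equal weight for each marker, a choice made after the data were seen, the median of all genes moved to 0.31, and Psat1 (-0.75) and Gldc (-1.36) were the only 2 of the 8 genes that passed. Relative to these markers Psat1 and Gldc were thus lower under either weighting, and the calls for Phgdh and Aldh1l1 depended on the scaling.

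**Figure D3:**
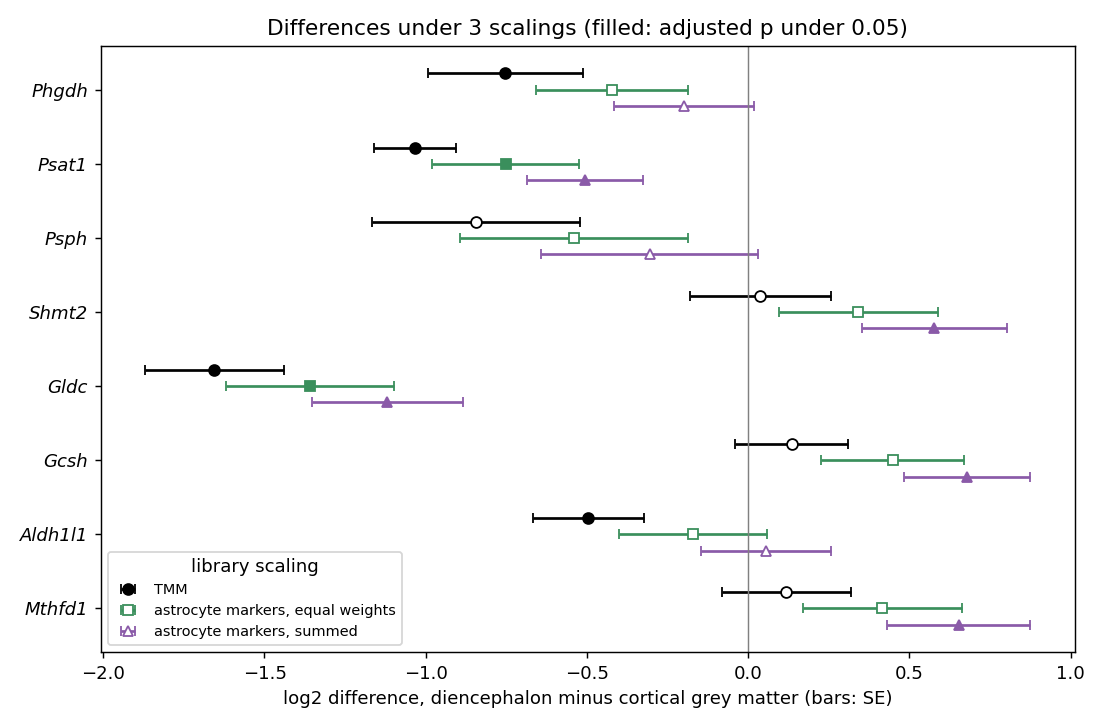
Log2 difference (diencephalon minus cortical grey matter) of the 8 tested enzyme genes with libraries scaled by TMM (black), by astrocyte markers with equal weights (green) or by their sum (purple); bars are SEs and filled symbols have an adjusted p under 0.05. Gldc and Psat1 lie below 0 with filled symbols under all 3 scalings.

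On the TPM scale, which is per length, levels can be compared between the genes. In diencephalon the order of mean TPM was Psat1 (477 ± 49.6), Gcsh (198 ± 20.1), Phgdh (116 ± 25.8), Aldh1l1 (103 ± 17.4), Shmt2 (50.4 ± 8.49), Mthfd1 (41.2 ± 3.42), Psph (22.2 ± 6.51), Gldc (21.6 ± 6.35), Amt (12.8 ± 5.38) and Shmt1 at 0 (SD, n = 3). The libraries of neighbours in this order overlapped for Phgdh and Aldh1l1, Psph and Gldc, and Gldc and Amt. In cortical grey matter the order was Psat1 (849 ± 51.9), Phgdh (169 ± 56.7), Gcsh (156 ± 26.3), Aldh1l1 (126 ± 29.7), Gldc (59.3 ± 7.76), Shmt2 (42.6 ± 5.33), Psph (34.5 ± 2.06), Mthfd1 (33.0 ± 3.25), Amt (6.00 ± 2.20) and Shmt1 (0.640 ± 0.562). There Phgdh and Gcsh, Gcsh and Aldh1l1, and Psph and Mthfd1 overlapped. Gldc thus held rank 8 in diencephalon and rank 5 in cortical grey matter.

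As a share of the summed TPM of the 10 genes, Psat1 averaged 45.8% ± 3.17 in the 3 libraries of the diencephalon and 57.8% ± 4.58 in the 3 cortical libraries (SD). Gcsh made up 19.0% ± 0.259 against 10.5% ± 0.785, and Shmt2 4.82% ± 0.397 against 2.88% ± 0.0627. Mthfd1 made up 3.96% ± 0.209 against 2.25% ± 0.278, and Amt 1.22% ± 0.486 against 0.399% ± 0.115. Phgdh held a like share, 11% ± 1.33 in diencephalon and 11.2% ± 2.86 in cortical grey matter. The share of Gldc was 2.06% ± 0.542 against 4.02% ± 0.274. The shares of Psat1, Gcsh, Shmt2, Mthfd1, Amt and Gldc did not overlap between regions, and those of Phgdh, Psph and Aldh1l1 did. Shares add to the whole, so a lower Psat1 raises the share of every other gene. In CPM, Gcsh, Shmt2, Mthfd1 and Amt overlapped between regions. In TPM, from which the shares are built, Shmt2 and Amt overlapped too, so their separation here is of shares alone. Gcsh and Mthfd1 were higher in diencephalon without overlap in TPM as well, as were 28.3% of genes on that scale. These shares are defined within the 10 genes, so no figure over all genes stands beside them.

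**Figure D4:**
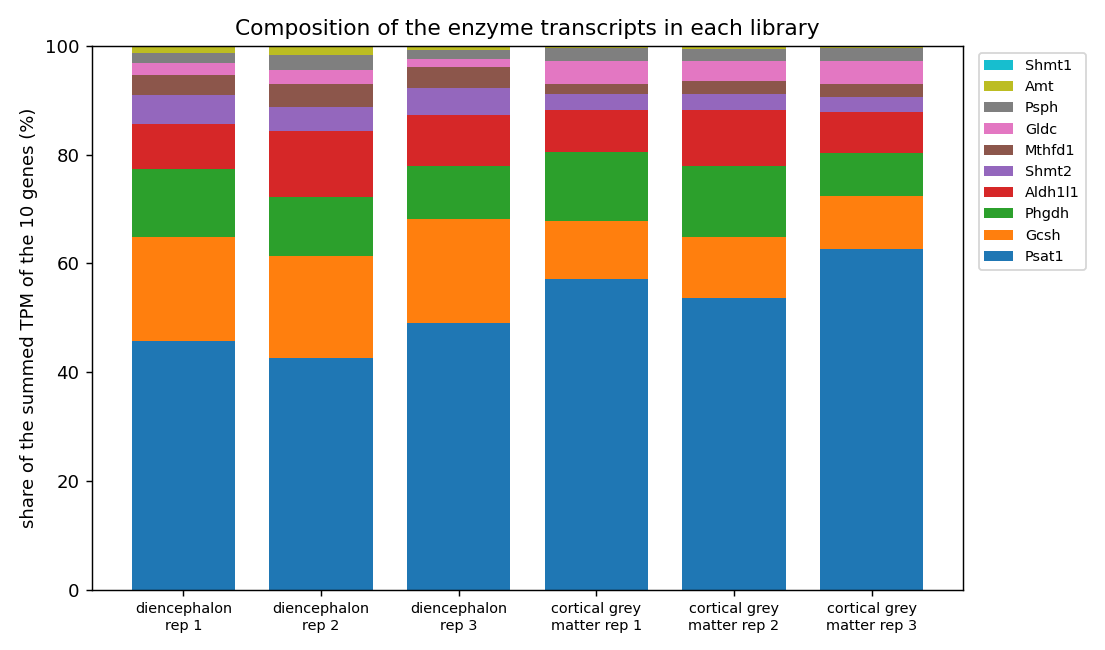
Share of each enzyme gene (%) in the summed TPM of the 10 genes, 1 stacked bar per library, diencephalon on the left and cortical grey matter on the right. Psat1 takes 42.7% to 49.0% of the diencephalic bars and 53.6% to 62.7% of the cortical bars, and Gcsh 18.7% to 19.2% against 9.63% to 11.2%.

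Genes around these enzymes did not follow them as a block. Of 108 listed genes of neighbouring pathways 106 were in the files and 64 were tested; 11 were higher, 5 lower and 48 did not pass, with a median log2 difference of -0.02. Among those called higher, Pipox and Impdh1 passed the count filter through diencephalon. The share higher among all genes tested was 14.9% and the share lower 14.8%.

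Other genes of folate metabolism were mostly too rare to test. Aldh1l2, the mitochondrial counterpart of Aldh1l1, was at 22.5, 31.6 and 29.8 CPM against 11.3, 15.4 and 24.2 CPM. It passed as higher (0.745 ± 0.27 SE, edgeR adjusted p = 0.0431), where Aldh1l1 was lower, but lost the call without diencephalon replicate 2 or 3 (0.153 and 0.133) or cortical replicate 1 or 2 (0.223 and 0.123; range over settings 0.00279 to 0.223). Ggh, which trims the glutamate tail of folates, did not pass, at 0.47 ± 0.36 (SE). Of 13 listed genes of the folate cycle 9 had too few counts. Of 7 folate transport genes 3 were tested. The exporter gene Abcc1 rose (0.64 ± 0.20 SE, edgeR adjusted p = 0.0164), a call lost without diencephalon replicate 1 (0.0700) and with DESeq2 (0.0664, range over settings 0.000167 to 0.0700), and the importer genes Slc46a1 and Slc19a1 did not pass, at 0.57 ± 0.41 and 0.52 ± 0.41 (SE).

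Among genes that use or move serine and glycine, Slc6a9 changed more than Gldc. The others that passed, apart from Pipox, changed less than Psat1. Slc6a9, the glycine transporter GlyT1, was at 180, 142 and 166 CPM in diencephalon, against 35.3, 38.9 and 32.3 CPM in cortical grey matter. This is a log2 difference of 2.19 ± 0.16 (SE), 4.56-fold higher (edgeR adjusted p = 6.98e-10). The neutral amino acid carriers Slc38a1 and Slc38a2 rose 1.72-fold and 1.53-fold (adjusted p = 7.91e-05 and 0.00229), and 6 of the 9 tested transport genes did not pass, among them Slc38a3 at -0.85 ± 0.32 (SE). Pipox, a peroxisomal sarcosine oxidase that yields glycine, was at 12.6, 7.38 and 5.23 CPM in diencephalon, against 0.873, 1.07 and 1.24 CPM from 6 counts in cortical grey matter. It passed the count filter through diencephalon alone and so could only rise (log2 difference 2.95 ± 0.57 SE, edgeR adjusted p = 0.000387). Grhpr did not pass, at 1.09 ± 0.47 (SE). Srr, the serine racemase gene, was lower, at 135, 154 and 154 CPM against 178, 187 and 224 CPM (-0.41 ± 0.13 SE, edgeR adjusted p = 0.0221). Srr did not pass without diencephalon replicate 1 or 3 (0.0901 and 0.0509) or cortical replicate 3 (0.0577), and the sign turned to 0.11 with summed astrocyte marker scaling (range over settings 0.0169 to 0.719). Of 10 neuron markers 3 were higher (Tubb3, Stmn2 and Eno2), 2 lower (Snap25 and Rbfox3) and 5 did not pass. Their summed level was 2507 to 2621 CPM in diencephalon and 3217 to 4337 CPM in cortical grey matter, with Snap25 at 658 against 1543 CPM on average, and the part of neurons in the Srr result was not tested.

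In the methionine and transsulfuration list 11 of 15 genes were tested, 2 rose and 1 fell. Gatm, which makes the creatine precursor from glycine and arginine, was at 288, 247 and 240 CPM in diencephalon, against 122, 150 and 135 CPM in cortical grey matter (0.93 ± 0.13 SE, edgeR adjusted p = 1.00e-05). Oligodendrocytes also express Gatm, and their marker sum was 2.23-fold higher in diencephalon. Whether they carried the Gatm signal was not tested. Mat2a, the catalytic subunit of methionine adenosyltransferase, rose 1.46-fold (adjusted p = 0.00134), while its regulatory subunit gene Mat2b fell 1.83-fold (adjusted p = 0.00497). The Mat2b call was lost with either astrocyte marker scaling (0.280 with the sum, 0.142 with equal weights; range over settings 0.00218 to 0.280). Cbs did not pass, at -0.28 ± 0.14 (SE).

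The glycolytic genes upstream of 3-phosphoglycerate and around it had a median log2 difference of -0.32, with 12 of 14 tested, 2 lower and none higher. Aldoc, an astrocyte aldolase that is also on the astrocyte marker list, fell 1.91-fold (edgeR adjusted p = 7.88e-05), a call lost with either astrocyte marker scaling (0.0998 and 0.0579; range over settings 2.59e-10 to 0.0998). Pfkp fell 1.38-fold (adjusted p = 0.0277), a call lost without diencephalon replicate 2 or 3 (0.0765 and 0.106) or cortical replicate 1 or 2 (0.0772 and 0.127; range over settings 0.00481 to 0.743), and its sign turned to 0.08 with summed astrocyte marker scaling. Pgam1 and Aldoa did not pass, at -0.37 ± 0.15 and -0.35 ± 0.15 (SE). Purine synthesis draws on formyl folate at some of its steps, not at every enzyme listed. Of 10 tested genes of that list, Impdh1 passed as higher (1.503 ± 0.45 SE, edgeR adjusted p = 0.0142). The call was lost without diencephalon replicate 3 (0.0800) or cortical replicate 2 (0.0853), with a range over settings of 0.00132 to 0.0853. With 19, 20 and 25 counts in diencephalon and 13, 2 and 7 counts in cortical grey matter, Impdh1 like Pipox passed the count filter through the diencephalic libraries, so its call gives no support for a rise. Paics, Pfas and Ppat did not pass, at -0.29, 0.56 and 0.42. Lias and Lipt2, which act in making the lipoyl group that Gcsh carries, did not pass, at -0.78 ± 0.48 and -0.37 ± 0.36 (SE).

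ATF4 is a stress-responsive factor that switches on Phgdh, Psat1 and Shmt2 in many cell types. Of 14 genes of ATF4 and its targets 8 were tested, and only Vldlr passed, as higher (0.81 ± 0.16 SE, edgeR adjusted p = 0.000405). Atf4 itself, named after its values were seen, had a log2 difference of -0.16 ± 0.20 (SE, adjusted p = 0.581). In the same list Slc7a11, Slc3a2 and Chac1 did not pass, at -0.37, -0.33 and 0.45. Without cortical replicate 3, Slc7a11 and Slc3a2 passed as lower (adjusted p = 0.00101 and 0.00287; ranges over settings 0.00101 to 0.937 and 0.00287 to 0.994).

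**Figure D5:**
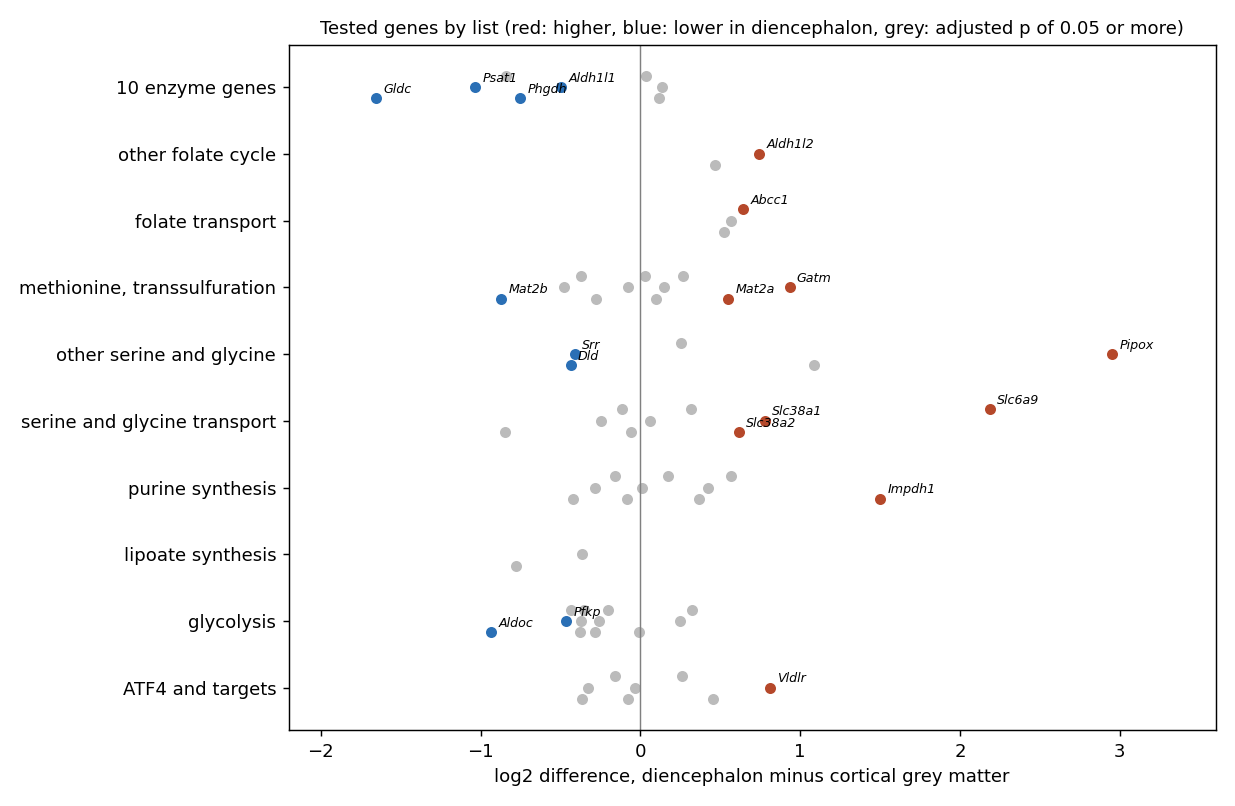
Log2 difference (diencephalon minus cortical grey matter) of the tested genes reported here, 1 row per list, with genes at an adjusted p under 0.05 named and coloured red (higher) or blue (lower) and the others grey. The 4 called enzyme genes lie at -1.66 to -0.50, while Slc6a9 at 2.19 and Pipox at 2.95 lie farthest to the right.

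Over the 6 libraries, the genes whose log2 CPM ran most like that of Psat1, among 8761 genes with at least 10 CPM on average, were Tmem151b, Etv5 and Pitpnm2 (Pearson r = 0.997, 0.997 and 0.996). For Gcsh, the closest to passing of the 3 tested genes with a positive difference, they were Pgm2, Msi1 and Cdk5rap2 (r = 0.984, 0.980 and 0.979). With 6 libraries in 2 regions these values mostly restate the regional difference and the library that stands apart, and they are given as a description.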

How the data were processed

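RNA bound to tagged ribosomes was sequenced in 6 libraries on an Ion Proton after cDNA amplification with the Ovation system, per the labels' protocols. The authors used RSEM and build mm9, per the submitters' processing notes; the sources used here do not give versions, aligner or use of strand. The deposited files hold an expected count, a TPM, an FPKM and a length per gene, per the file headers. The deposited expected counts, of which 3.64% to 3.99% of values a library were not whole, were rounded. The deposited TPM values, scaled to length and library total, served for levels and ratios, and the deposited FPKM values for a check of shares.

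Counts were tested with edgeR 4.0.16 in R 4.3.3 (TMM scaling, filterByExpr with a minimum count of 10, robust quasi-likelihood fit, glmTreat for 1.5-fold, Benjamini-Hochberg adjustment over all genes tested), a procedure first tested on simulated data. In that simulation, where most genes were unchanged, it recovered 21.2% of 1.5-fold, 67.2% of 2-fold and 98.5% of 4-fold changes. A gene that did not pass may therefore still differ between regions. Intervals of log2 differences are 95% and unadjusted. Alternatives used DESeq2 1.42.0, limma 3.58.1, other scalings and filters, and each library left out. The genes and lists were chosen with earlier results of these data known. Besides the 10 genes, the text names the tested genes lowest in adjusted p in every list, at most 4, and the 3 genes most alike in log2 CPM to the leading gene in each direction. The ratio of Shmt2 to Shmt1 could not be tested, since Shmt1 was at 0 in 4 libraries. Some genes of the folate list are not reported here.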

Additional observations from a re-analysis of the deposited data

How the results depend on the processing

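Psat1 and Gldc kept their direction and passed as lower under every setting, including all 6 with 1 library left out. With libraries scaled to summed astrocyte markers, 90.3% of called genes were higher (50.2% with TMM) and 2 of the enzyme genes were lower, 3 higher and 1 lower beyond 1.5-fold; 29 neighbouring genes were higher and 0 lower. There Phgdh was at -0.199, Shmt2 at 0.577, Gcsh at 0.680, Mthfd1 at 0.653, and the signs of Aldh1l1 (0.056), Srr (0.111), Dld (0.101) and Pfkp (0.0769) turned. With equal marker weights, chosen after seeing the data, 77.8% of called genes were higher, 2 enzyme genes were lower and 1 beyond 1.5-fold, 0 neighbouring genes were lower, and Phgdh (-0.422) and Aldh1l1 (-0.171) did not pass. On log2(TPM + 1) and log2(TPM + 0.1), limma gave 2 and 2 enzyme genes and 3 and 3 neighbouring genes lower, with Phgdh at -0.497 and -0.500 and Aldh1l1 at -0.268 and -0.270; the median of all genes moved to 0.22 and 0.23, and 68.9% and 68.7% of called genes were higher. Phgdh also did not pass with a length trend removed (-0.586) or limma voom (-0.724), nor Aldh1l1 with DESeq2 (-0.506), while Psph passed with voom (-0.871). Without a filter 10 neighbouring genes were lower, beside 1760 of all 16615 genes tested. Apart from the scalings, the cause of these changes was not tested.

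With 1 library left out, 2 to 5 enzyme genes were lower, 2 to 3 beyond 1.5-fold, and 9 to 12 neighbouring genes were higher and 2 to 11 lower (without cortical replicate 3, 11). The number lower over all genes moved too. It was 1186 of 10991 without diencephalon replicate 3 and 1692 of 11063 without cortical replicate 3. Log2 differences ran from -1.004 to -0.61 for Phgdh, from -1.05 to -0.64 for Psph and from -0.65 to -0.29 for Aldh1l1. Same-numbered libraries did not deviate together (r = 0.06, -0.098 and -0.007), so no pairing by number was detectable. With the replicate number as a block 4 enzyme genes and 8 neighbouring genes were lower, beside 1531 of all 10568 genes tested. Phgdh was then at -0.72 (edgeR adjusted p = 0.00417), and both tested ratios had an exact p of 0.25, the smallest possible. The 1.5-fold test was not run with DESeq2 or limma. Depth left Shmt1 and Amt untested.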
